A study of Mus musculus with 5 samples.

Results

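The step from hemogenic endothelium (HE) to hematopoietic progenitors (HP) was followed through the DNaseI hypersensitive sites listed for each population. Every site of the HE and HP lists was set to a 500 bp window around its middle, and windows sharing at least 25% of their length were joined into regions. This gave 37329 regions. Of these, 19599 were in HE only (52.5%, 95% Wilson interval 52.0 to 53.0), 4024 in HP only (10.8%, interval 10.5 to 11.1) and 13706 in both lists (36.7%, interval 36.2 to 37.2). The whole series holds 135173 sites in 5 lists, of which HE gave 33305 and HP 17734. The other lists, mesoderm (MES), hemangioblast (HB) and macrophage (MAC), were used here only to ask where else an HE or HP region was listed.

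All cells came from 1 mouse embryonic stem cell line of strain 129 that carries a GFP reporter for Brachyury, a mesoderm factor, and was differentiated in culture with no drug or mutation that differs between the stages. MES cells were sorted as Bry.GFP+ and FLK1-, HB cells as Bry.GFP+ and FLK1+, HE cells as Bry.GFP+, Tie2+, cKit+ and CD41-, HP cells as CD41+, and MAC cells as CD11b+. Each stage is 1 list, so there are no replicate values and no test between HE and HP was possible. The labels do not say whether the HE and HP lists pool replicates, whereas the MAC sample is labelled as 2. Intervals below cover counting error only, and the read depth behind a list, which sets how many sites can be called, is unknown from the files. The study lists fewer aligned reads for HP than for HE, so a site missing from HP cannot be told apart from a site too weak to be called there.

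Hemogenic endothelium is the vessel-lining cell from which blood cells bud. In this step, the endothelial-hematopoietic transition, the cell rounds up, stops making junction proteins such as VE-cadherin and gains blood surface proteins such as CD41. RUNX1, GFI1 and GFI1B are needed for it, SOXF and ETS factors maintain the endothelial state, and GATA and TAL1 act in both states and later in red cells and megakaryocytes. DNaseI cuts DNA that is not covered by nucleosomes, so a hypersensitive site marks a promoter or enhancer that is accessible in the sorted cells.

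The sequences that the comparison turns on are those of regions far from promoters. RUNX sites (letters TGTGGTT) and a TAL1-GATA composite (CTG, a gap of 9 bases, then GATAA) were more frequent in HP-only regions, and ETS (CAGGAAG) and SOX (ACAATGG) sites in HE-only regions. For each of these, the widest region is shown that lay beyond 2 kb of a TSS and outside exons, held the letters in its central 200 bp and had no interval of the other list over it. Sequences are from the GRCm38.p6 (mm10) reference, plus strand, 5′ to 3′, and capitals mark the match. A match on the minus strand reads as its reverse complement.
RUNX, HP only, chr11:72482064-72482263: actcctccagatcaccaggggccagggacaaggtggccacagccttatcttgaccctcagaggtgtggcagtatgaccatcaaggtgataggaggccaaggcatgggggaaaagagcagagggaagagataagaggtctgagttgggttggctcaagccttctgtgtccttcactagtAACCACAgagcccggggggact
TAL1-GATA composite, HP only, chr11:108246364-108246563: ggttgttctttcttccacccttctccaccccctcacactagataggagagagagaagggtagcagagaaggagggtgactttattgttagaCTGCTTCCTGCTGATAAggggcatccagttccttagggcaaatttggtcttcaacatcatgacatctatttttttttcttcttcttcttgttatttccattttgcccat
ETS, HE only, chr12:55437871-55438070: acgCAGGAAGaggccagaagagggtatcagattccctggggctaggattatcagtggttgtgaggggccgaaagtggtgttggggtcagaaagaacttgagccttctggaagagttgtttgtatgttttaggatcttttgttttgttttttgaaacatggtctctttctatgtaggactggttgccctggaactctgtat
SOX, HE only, chr15:77911742-77911941: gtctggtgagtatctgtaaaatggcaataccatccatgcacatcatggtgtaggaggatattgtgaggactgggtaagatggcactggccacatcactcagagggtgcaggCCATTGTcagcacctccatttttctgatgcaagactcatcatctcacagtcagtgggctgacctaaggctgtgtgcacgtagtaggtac
The RUNX region lies in an intron, 7.14 kb upstream of the nearest TSS, that of Spns2, and its HP site was 1200 bp wide. The composite lies in an intron 97.4 kb from the TSS of Prkca, under a site of 1000 bp. The ETS region is intergenic, 39.1 kb downstream of the Psma6 TSS, under an HE site of 2000 bp. The SOX region is intergenic, 17.2 kb downstream of the Txn2 TSS, under an HE site of 2100 bp, and was also listed in HB. The first 3 were in none of the MES, HB and MAC lists.

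Of the regions listed in HE, 41.2% were also in HP (interval 40.6 to 41.7), and of those in HP 77.3% were also in HE (interval 76.7 to 77.9). The classes depend on where the middle of a site falls. The median HE site was 1200 bp wide and the median HP site 900 bp, and a narrow HP site at the edge of a wide HE site becomes a region of its own. Of the HP-only regions, 1541 (38.3%) came from an HP interval that overlapped an HE interval, against 1462 of the HE-only regions (7.46%). Without these, 18137 regions were in HE only and 2483 in HP only. The latter 2 sets are called the regions without interval overlap, and the position, other-list and gene list results below are also given for them. At single genes, a count in brackets is the number without interval overlap, given where it differs.

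The remaining HP-only sites lay close to HE sites. In HP sites without interval overlap, the gap to the nearest HE interval had a median of 8.80 kb (quartiles 2.95 and 22.3 kb), and 53.8% were within 10 kb of one. The gap from an HE site to the nearest HP interval was 27.3 kb (quartiles 9.25 and 78.1 kb), and 26.7% were within 10 kb. The HE list is the longer and wider one, and a gap to a longer list is shorter by construction.

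Promoters were kept from HE to HP more often than sites farther out, with a gap that depended on site width. Within 2 kb of a TSS of a curated protein-coding transcript, 66.4% of HE regions were also in HP (interval 65.6 to 67.3). At 2 to 20 kb the share was 30.6% (interval 29.6 to 31.6), and beyond 20 kb it was 23.2% (interval 22.4 to 23.9). Among HE promoter regions, those rich in CpG (at least 50% GC and an observed to expected CpG ratio of at least 0.6) were kept in 76.3% of cases (interval 75.4 to 77.2). The other promoter regions were kept in 39.7% (interval 38.0 to 41.4). At equal width the gap between promoters and farther sites was smaller: 13.9% against 12.7% for HE sites of 100 to 500 bp, 17.3% against 12.01% at 600 to 800 bp, and 83.1% against 56.8% at 1600 to 2000 bp. Accordingly promoters made up 60.1% of the shared regions (interval 59.3 to 60.9) and 21.2% of the HE-only regions (interval 20.7 to 21.8).

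The promoter share of HP-only regions rested on the placement of middles. It was 38.2% (interval 36.8 to 39.8) over all HP-only regions, yet 1155 of these 1539 promoter regions (75%) came from an HP interval that overlapped an HE interval. Among CpG-rich HP-only promoters the share was 81.3%. Without interval overlap, promoters made up 15.5% of HP-only regions (interval 14.1 to 16.9) and 16.8% of HE-only regions (interval 16.3 to 17.3), and these intervals overlap. In that comparison the classes differed farther out: 40.5% of HP-only regions lay at 2 to 20 kb from a TSS (interval 38.6 to 42.5) against 31.3% of HE-only regions (interval 30.7 to 32.0), and 44.0% against 51.9% lay beyond 20 kb.

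Wide sites overlapped the other list more often than narrow ones. Of HE intervals of 100 to 500 bp, 13.2% overlapped an HP interval (interval 11.5 to 15.2). The share was 32.6% at 1100 to 1200 bp, 86.0% at 1600 to 2000 bp and 87.3% from 2100 bp (interval 84.8 to 89.4). Joined by their middles, only 41.4% of the HE sites from 2100 bp fell in shared regions. HP intervals ran from 62.6% at 100 to 500 bp (interval 61.0 to 64.1) to 98.8% at 1100 to 1200 bp. HE-only sites had a median width of 1000 bp and HE sites of shared regions one of 1500 bp. HP-only sites had a median of 600 bp, against 900 bp for HP sites of shared regions. The width of a site may depend on how strong it is and on how deeply the library was read. The files hold neither, and their part in these shares was not tested.

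**Figure D1:**
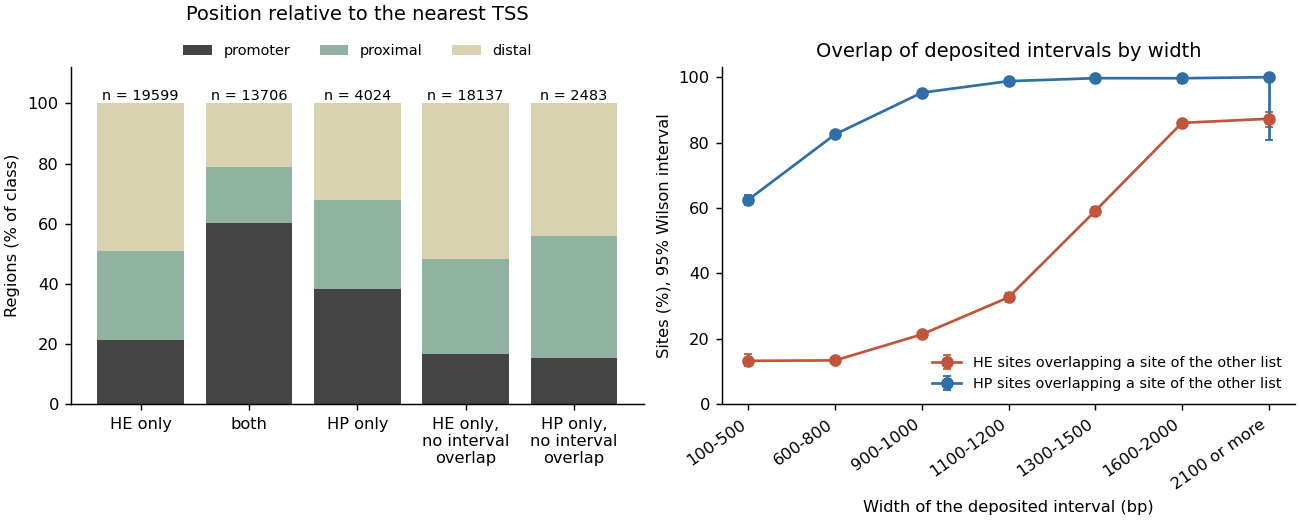
Left, share of regions (%) within 2 kb of a TSS (promoter), at 2 to 20 kb (proximal) and beyond 20 kb (distal) in each class, with and without regions whose deposited interval overlaps the other list, and the number of regions above each bar. Right, share of deposited intervals (%) that overlap an interval of the other list, by width in bp, with 95% Wilson intervals: it rises from 13.2% to 87.3% in HE, and the promoter share of HP-only regions drops from 38.2% to 15.5% once intervals that overlap are left out.

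Regions of one list differed in where else they were listed. Beyond 2 kb of a TSS, where the middle of a site matters least, 64.0% of HE-only regions (9884 of 15440, interval 63.3 to 64.8) were in none of the MES, HB and MAC lists. The share was 55.2% for HP-only regions (1372 of 2485, interval 53.2 to 57.2) and 25.2% for shared regions (interval 24 to 26.3). HP-only regions were listed earlier, in MES or HB, in 30.1% of cases (interval 28.3 to 31.9) and HE-only regions in 21.6% (interval 21.0 to 22.3). Without interval overlap these shares were 25.7% (539 of 2099, interval 23.9 to 27.6) and 21.5% (interval 20.8 to 22.1), and 59.4% of such HP-only regions were in none of the other lists. MAC held 25.8% of HP-only regions (interval 24.1 to 27.5), 19.5% of HE-only regions (interval 18.9 to 20.2) and 51.1% of shared regions. The MAC list, with 37456 sites of a median of 600 bp, is the longest list.

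At promoters the gap between the one-list classes depended on interval overlap. Of HE-only promoter regions, 46.0% were in none of the other lists, against 11.9% of HP-only and 1.28% of shared ones. Without interval overlap the shares of the one-list classes were 45.1% (interval 43.4 to 46.9) and 27.1% (104 of 384, interval 22.9 to 31.7). Most promoter regions of HP only were thus promoters that other stages listed too, and 75% of them carried an HE interval that the windows did not join.

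**Figure D2:**
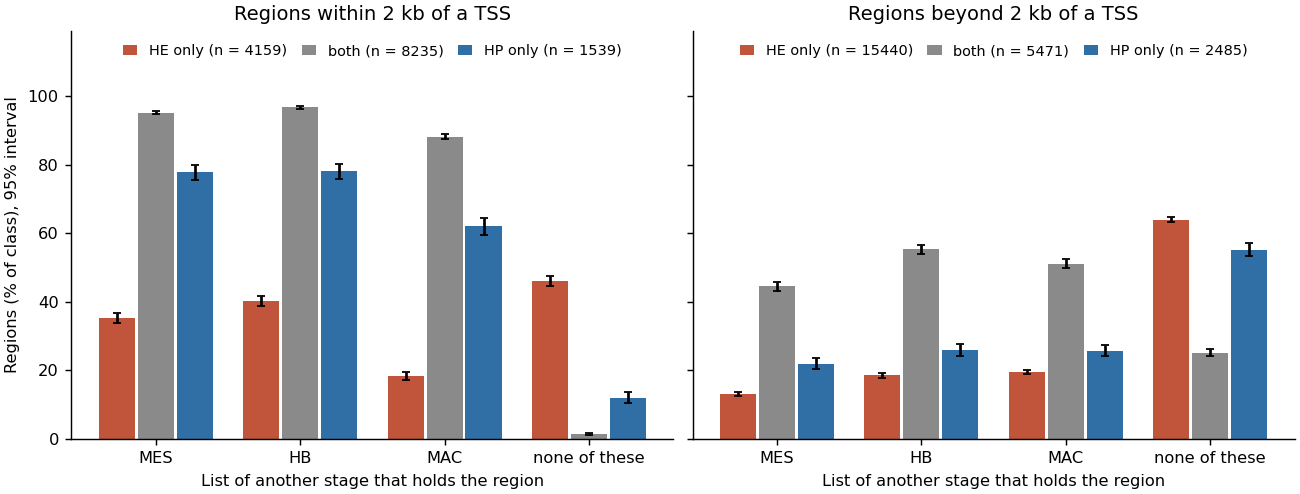
Share of HE-only, shared and HP-only regions (% of the class, bars, with 95% Wilson intervals) that the MES, HB or MAC list also holds, or none of these, for regions within 2 kb of a TSS (left) and beyond 2 kb (right). Shared regions are the most widely listed, and beyond 2 kb 64.0% of HE-only regions are in none of the other lists.

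The short DNA words that transcription factors bind were then counted in the central 500 bp of the regions beyond 2 kb of a TSS, on both strands, for 18 factors. A share was called higher in one class where the 95% interval of the difference left out 0, with no correction over the 18. Of these, 6 were higher in HP-only regions, 6 in HE-only regions and 6 in neither. With the letters of each motif reversed, which keeps its base composition, 0 were higher in HP-only and 3 in HE-only regions, so a small difference in this direction also arises from words with no known factor. The base composition of the classes was close, with a median GC content of 49.6% in HP-only and 49.2% in HE-only regions beyond 2 kb.

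RUNX, the site of RUNX1, which is required for blood to emerge from endothelium, was in 19.1% of HP-only regions (474 of 2485, interval 17.6 to 20.7). It was in 11.1% of HE-only regions (interval 10.6 to 11.6), 14.1% of shared regions and 12.6% of all regions beyond 2 kb. The difference between the one-list classes was 7.99 percentage points (interval 6.41 to 9.66). Its letters reversed were in 6.52% and 6.63% of HP-only and HE-only regions. The RUNX sites of HP-only regions sat in the middle: the central 200 bp held 0.60 matches per kb against 0.260 per kb at 700 to 1000 bp from the middle, a ratio of 2.31. In HE-only regions the ratio was 0.932, so that RUNX sites were no denser in the middle of an HE-only region than beside it. In shared regions it was 1.28.

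GATA (letters AGATAA), the site of GATA1 and GATA2, was in 35.2% of HP-only regions (interval 33.3 to 37.1), 31.3% of HE-only regions (interval 30.6 to 32.1) and 31.9% of all. This difference, 3.84 points (interval 1.85 to 5.88), was small and not stable. It fell to 1.16 points (interval -1.74 to 4.12) among regions of 40 to 50% GC, and to -0.17 points when the HE list was cut to its widest sites. The TAL1-GATA composite, the arrangement bound by the erythroid TAL1 and GATA1 complex, showed a wider gap, with 8.17% of HP-only regions (interval 7.16 to 9.31) against 3.24% of HE-only regions (interval 2.98 to 3.54) and 4.44% of all. An E-box that TAL1 can bind (CAGATG) was in 36.9% and 38.2% of HP-only and HE-only regions (37.7% of all), and the interval of the difference (-3.35 to 0.74 points) included 0.

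KLF sites (CCACACCC), which KLF1 binds at red cell genes, were in 7.24% of HP-only and 4.72% of HE-only regions, and 5.20% of all. That difference of 2.52 points fell to 1.14 (interval -0.02 to 2.54) at 40 to 50% GC and to 1.15 (interval -0.68 to 3.65) among sites at or above the median width. The MAF-NFE2 site (TGCTGA, any base, TCA), bound by the red cell and platelet factor NFE2 and holding the AP-1 letters within it, was in 3.18% and 2.05%, and 2.53% of all, and its difference also included 0 at 40 to 50% GC (interval -0.02 to 2.11). CTCF sites, which mark loop anchors, were in 1.97% and 0.972%, and 1.27% of all. Outside this group, AP-1 (TGANTCA) was in 23.6% of HP-only, 24.9% of HE-only and 25.6% of all regions. MEIS (CTGTCA) was in 37.9%, 37.5% and 37.2%, and CEBP (TTGCNNAA) in 18.95%, 18.2% and 17.99%. MEF2 (CTA, a gap of 4 bases, TAG) was in 8.33%, 7.77% and 7.53%, and RBPJ (GTGGGAA), the Notch effector, in 11.99%, 12.6% and 12.5%. The intervals of these 5 differences all included 0. That of AP-1 did not in every setting: its share was 4.40 points higher in HP-only regions (interval 2.62 to 6.17) with the HE list cut to its widest sites, and 2.76 points higher in HE-only regions (difference -2.76, interval -5.34 to -0.06) at 40 to 50% GC.

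ETS sites, bound by the endothelial factors ERG, FLI1 and ETS1, had the largest difference of the 18. They were in 41.2% of HE-only regions (6355 of 15440, interval 40.4 to 41.9) and 26.2% of HP-only regions (650 of 2485, interval 24.5 to 27.9), with 35.4% in shared regions and 38.2% in all. The ratio of the middle to the flank was 3.23 in HE-only, 2.62 in shared and 1.58 in HP-only regions. PU.1 sites (GAGGAAGT), which share the GGAAG core with the ETS letters, were in 7.35% of HE-only, 5.03% of HP-only and 7.01% of all regions, a difference that included 0 at the median width (-0.66, interval -2.70 to 2.01).

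SOX sites, bound by SOX7, SOX17 and SOX18, the SOXF factors of endothelium, were in 11.4% of HE-only regions (1756 of 15440, interval 10.9 to 11.9), 6.95% of shared and 4.55% of HP-only regions (113 of 2485, interval 3.8 to 5.44), and in 9.61% of all. In HE-only regions the middle held 2.06 times the flank density, in shared regions 1.03 times and in HP-only regions 0.516 times. Forkhead sites (TGTTTAC) were in 8.52% of HE-only, 6.08% of HP-only and 7.87% of all regions, and this difference too included 0 at the median width (interval -4.32 to 0.17). TEAD sites (CATTCCA), where the Hippo pathway acts, were in 11.7% and 10.3%, and 11.5% of all. The interval of that difference (-2.72 to -0.12 points) came close to 0, and its sign turned (0.26 points) when the HE list was cut to its widest sites. It also included 0 in the central 200 bp (interval -1.78 to 0.03) and in regions that are not CpG-rich (interval -2.56 to 0.15). GFI1 sites (AATCACNGC), bound by the repressors GFI1 and GFI1B, were rare, in 1.44% of HE-only, 0.805% of HP-only and 1.30% of all regions. The GFI1 difference included 0 in the central 200 bp (-0.08 points), at 40 to 50% GC, at the median width and with the widest HE sites. RUNX, the TAL1-GATA composite, CTCF, ETS and SOX were the 5 motifs whose difference left out 0 in each of the 7 alternative settings, 2 of which hold the same one-list regions. RUNX and GATA letters were found together in 7.32% of HP-only regions and 3.65% of HE-only regions, and SOX and ETS letters together in 1.09% and 4.70%. Each of these was close to the product of the shares of its members (6.71% and 3.47% for RUNX with GATA, 1.19% and 4.68% for SOX with ETS).

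**Figure D3:**
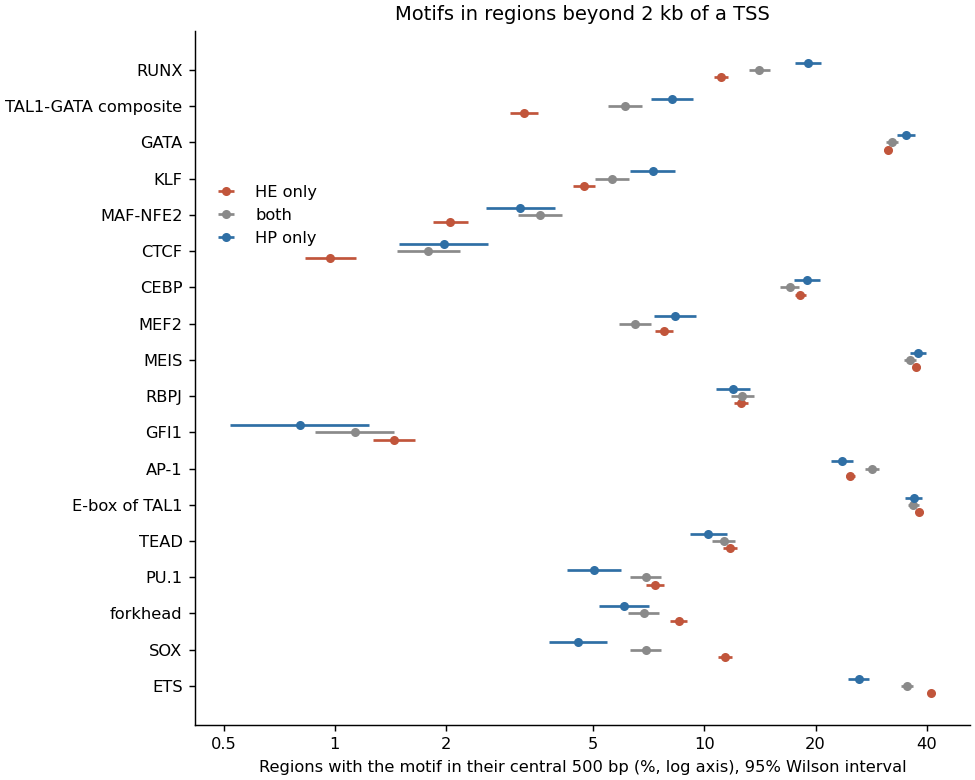
Share of regions beyond 2 kb of a TSS with each motif in their central 500 bp (%, log axis) in HE-only, shared and HP-only regions, as points with 95% Wilson intervals, ordered by the difference between HP only and HE only. RUNX and the TAL1-GATA composite are highest in HP-only regions (19.1% and 8.17%), and ETS and SOX in HE-only regions (41.2% and 11.4%).

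**Figure D4:**
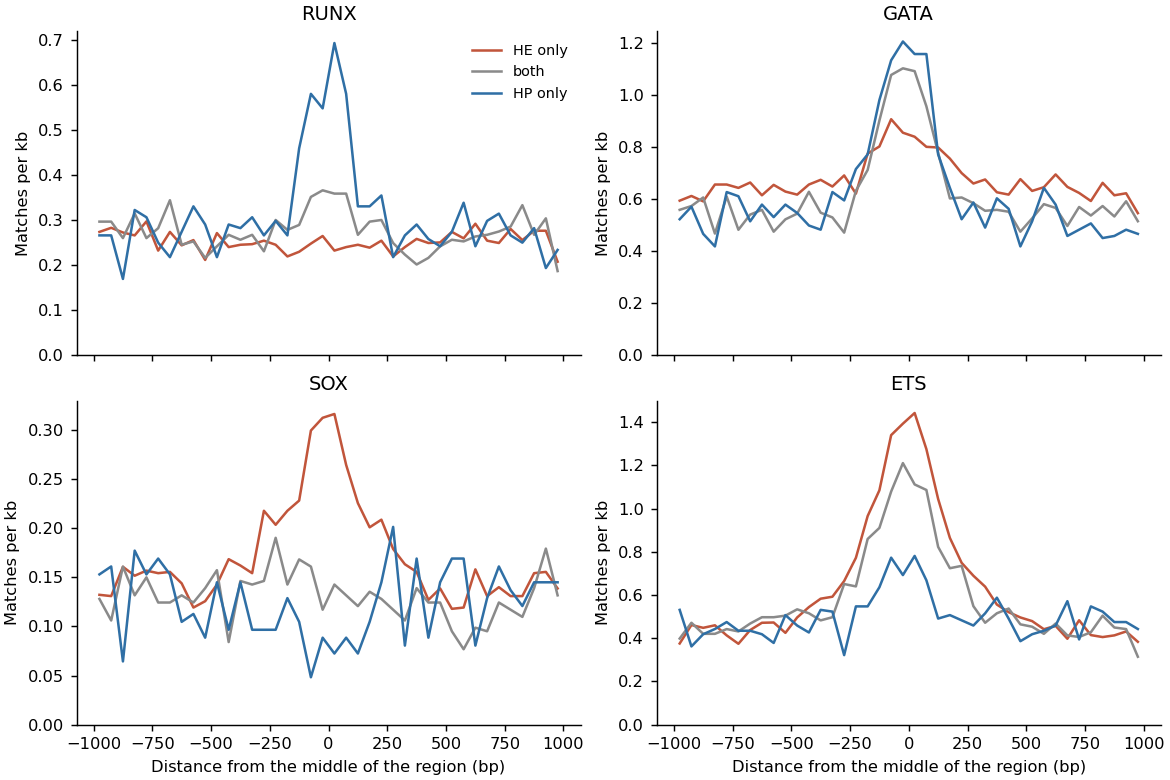
Density of RUNX, GATA, SOX and ETS letters (matches per kb, bins of 50 bp) by distance in bp from the middle of HE-only, shared and HP-only regions beyond 2 kb of a TSS. RUNX peaks in the middle of HP-only regions (0.60 per kb over the central 200 bp) and stays level in HE-only regions (0.246 per kb), while SOX peaks in HE-only regions (0.298 per kb) and is lowest in the middle of HP-only regions (0.0744 per kb).

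The motif content moved with the other lists. HP-only regions that were in no other list had GATA letters in 44.5%, the TAL1-GATA composite in 11.7% and RUNX letters in 21.3% of cases. HP-only regions also listed in MES or HB had them in 22.5%, 3.48% and 12.4%. HP-only regions also listed in MAC had GATA letters in 21.4% and RUNX letters in 20%, and 8.44% had the PU.1 site, the main macrophage factor. HE-only regions also listed in MAC had the PU.1 site in 11.9% and AP-1 in 34.7%, against 6.25% and 22.5% of those not in MAC. SOX letters were in 13.1% of HE-only regions in no other list, 7.76% of those listed in MES or HB and 7.92% of those in MAC.

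At genes, a promoter call was made where a deposited site lay within 1 kb of a curated TSS. Of 21000 protein-coding genes, 10105 had one in both lists (48.1%), 2559 in HE and not HP (12.2%) and 184 in HP and not HE (0.876%). No site in either list was found at 38.8%, and of the 12664 genes with a promoter site in HE, 79.8% kept it in HP. A site or promoter is called lost below where HE lists it and HP does not, and gained in the reverse case. These words describe 2 lists of unequal length and no test stands behind them. Of the 184 gained promoters, 75% (138, interval 68.3 to 80.7) also had a site in MES or HB, and 82.1% had one in MES, HB or MAC, against 98.6% and 99.4% of the promoters in both lists. Of the 2559, 68.0% (interval 66.1 to 69.7) had a site in MES or HB and 24.6% in MAC. Regions were assigned to the gene with the nearest TSS within 100 kb, which need not be the gene they regulate. On that measure 41.2% of genes had at least 1 HE-only region, 9.2% at least 3, 14.4% at least 1 HP-only region and 2.64% at least 2.

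The sorted cells were checked against defining markers. Of 6 endothelial markers, 5 had a promoter site in HE and 3 in HP, with 29 HE-only and 0 HP-only regions around them. Of 6 blood progenitor markers (Itga2b, Ptprc, Spi1, Runx1, Gfi1b and Vav1), 3 had a promoter site in HE and the same number in HP, with 4 HE-only and 10 HP-only regions, or 3 and 7 without interval overlap. Most of these HP-only regions were at Runx1, with 6 (5), and the wider lists of blood transcription factors and progenitor surface genes below had more HE-only than HP-only regions. Neither list had a region nearest to Ptprc, which encodes CD45. Of the smooth muscle and mesenchyme markers Acta2, Tagln, Pdgfrb, Col1a1 and Col3a1, 3 of 5 had a promoter site in each list, whereas in the wider list of 24 such genes below 10 had one in HE only and 0 in HP only. Of the macrophage markers Itgam, Csf1r, Cd68 and Tyrobp, 1 of 4 had one, Cd68. Tek, which encodes the HE sorting marker Tie2, had its sites in HE alone. Kit had a promoter site in both lists, with 4 HE-only regions and 1 shared. Itga2b, which encodes CD41, had a promoter site in both lists as well, although HE was sorted as CD41-.

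Around endothelial identity genes, HE-only regions were 71.9% of the regions without interval overlap, against 49.9% around all genes. Of 28 genes for junctions, receptors and surface proteins, 17 had a promoter site in HE and not HP, 0 the reverse and 8 in both, against 12.2% and 0.876% of all genes. At least 1 HE-only region lay near 27 of them (96.4%) and at least 3 near 14 (50%), against 41.2% and 9.2% of all genes. Around these genes were 100 HE-only, 3 HP-only and 36 shared regions without interval overlap, so HE-only regions were 97.1% of the one-list regions (interval 91.8 to 99.0), against 87.2% around all genes. The interval counts each region as independent, here and for the lists below, although several regions can lie at 1 gene. Some genes are in more than 1 list. The gene list was chosen with earlier results of these data known.

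Tek had 5 regions, and all 5 were HE only: at -23.7, -18.7 and -13.3 kb, at the promoter, and in an intron at 7.17 kb. None of the 5 was in MES, HB or MAC. Kdr, the receptor for VEGF and itself the FLK1 of the HB sort, had 15 HE-only regions, the outermost at -62.2 and 81.6 kb from its TSS, and 2 shared ones, at its promoter and in an intron at 16.1 kb. None of the 15 was in the MES or HB list, 4 were in MAC and 11 in no other list. Cdh5, which encodes VE-cadherin, had 4 HE-only regions, 2 of them within 2 kb of its TSS, and 3 shared ones. Flt1, Flt4, Eng, Egfl7, Nrp2, Aplnr, Clec14a and Ptprb each had at least 3 HE-only regions and a promoter site in HE and not HP, with 10 HE-only regions at Ptprb and 7 at Egfl7. Cldn5, Robo4, Ramp2, Nos3, Vwf, Ecscr and Rasip1 had fewer, with the same promoter call. Pecam1, Nrp1 and S1pr1 kept their promoter site in HP, with 3, 8 (7) and 6 HE-only regions. The HP-only regions were at Vwf, the platelet and vessel adhesion factor, with 2, at Rasip1 with 1, and at Nrp1 with 1 whose interval overlaps an HE interval.

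For Tek and Cdh5, a stretch of an HE-only region with ETS matches is shown, since the ETS letters marked this class. These were chosen after their values were seen.
Tek, intron, HE only, chr4:94746543-94746692: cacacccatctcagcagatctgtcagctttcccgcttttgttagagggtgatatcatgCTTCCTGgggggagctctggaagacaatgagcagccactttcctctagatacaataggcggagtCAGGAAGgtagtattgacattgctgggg
Cdh5, intergenic, HE only, chr8:104095894-104096043: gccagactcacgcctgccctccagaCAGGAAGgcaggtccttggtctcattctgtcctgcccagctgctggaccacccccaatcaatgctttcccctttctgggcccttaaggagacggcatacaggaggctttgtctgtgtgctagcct
Capitals mark ETS matches on either strand, 2 in the Tek stretch and 1 in the Cdh5 stretch, which lies 5.50 kb upstream of the Cdh5 TSS.

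Of the endothelial transcription factor genes with a promoter site in HE, 73.7% (14 of 19, interval 51.2 to 88.2) kept it in HP, near the 79.8% of all genes. Of 20, 14 had a promoter site in both lists, 5 in HE alone (Sox7, Sox18, Erg, Elk3 and Foxc2) and 1 in HP alone, Foxc1. All 20 had at least 1 HE-only region, and 10 had at least 3, where 41.2% and 9.2% of all genes did and 12.2% lost their promoter. These counts include regions with interval overlap, and without them Bcl6b had 0 HE-only regions and Klf2 and Lyl1 had 2 each. Without interval overlap HE-only regions were 95.7% of the one-list regions (interval 88.1 to 98.5), against 87.2% around all genes. Ets1, which encodes a founding ETS factor, had 15 (14) HE-only and 2 shared regions. HE-only regions numbered 9 (7) at Elk3, 6 at Erg, 6 (4) at Foxo1, 6 (5) at Epas1 and Klf4, 5 at Nr2f2, 4 (2) at Klf2, 3 (2) at Lyl1 and 3 at Foxc1. Of the 16 HP-only regions around this list, 3 had no interval overlap, at Elk3, Foxc1 and Nr2f2. The 3 HP-only calls at Foxo1 and the 2 each at Klf2 and Lyl1 all came from HP intervals over which an HE interval lay.

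The Notch pathway list, whose ligands and receptors set arterial and blood fate, had 39 HE-only, 2 HP-only and 14 shared regions without interval overlap. HE-only regions were 95.1% of the one-list regions (interval 83.9 to 98.7), an interval that holds the 87.2% of all genes. Notch1 had 8 (7) HE-only regions, Maml2 7, Hey1 5, Hes1 4 (3) and Jag1 3, and Hes1 also had 2 (1) HP-only regions. The promoters of Notch4, Dll1 and Maml2 had a site in HE and not HP, and 76.9% of the list's 13 HE promoter sites were kept, near the share over all genes. Smooth muscle and mesenchyme genes had 63 HE-only, 5 HP-only and 19 shared regions without interval overlap, and their one-list share of 92.6% in HE only (interval 83.9 to 96.8) also holds that of all genes in its interval. Of these 24 genes, 10 lost their promoter site (Myl9, Cnn1, Tpm2, Pdgfra, Col1a2, Twist1, Twist2, Prrx1, Fbn1 and Gata6), against 12.2% of all genes, and 0 gained one. HE-only regions numbered 7 at Gata4, 6 at Hand1 and Fbn1, 5 at Gata6, Col1a2 and Tpm1, 4 at Pdgfra and Tbx20, 4 (3) at Snai1, 3 at Twist1 and 3 (1) at Col1a1. Col1a1 had 3 (1) HP-only regions and Snai1 2 (1). HE cells were sorted by Tie2 and cKit, and whether other cells of the culture were in the sort was not tested.

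TGF-beta and BMP signaling genes had 55 HE-only, 11 HP-only and 32 shared regions without interval overlap. HE-only regions were 83.3% of the one-list regions (interval 72.6 to 90.4), near the 87.2% of all genes. Smad7, an inhibitor of the pathway, had more HE-only regions than any other gene, 17, with 1 HP-only and 3 shared. Smad6, the other inhibitory SMAD, had 7 HE-only and 7 shared, Smad3 had 6 HE-only, Tgfbr2 5, Id3 and Acvrl1 4 each, and Tgfb2, Id1 and Bmpr2 3 (2) each. Smad1, which carries the BMP signal, had 4 (3) HE-only, 5 (4) HP-only and 2 shared regions. Ltbp1 had 3 (2) HP-only regions and Skil 2 (1). Only Acvrl1, an endothelial receptor of this pathway, lost its promoter site, of 14 genes that had one in HE. The share kept was 92.9% (interval 68.5 to 98.7), and this interval holds the 79.8% of all genes. Of the Hippo list, Tead4, Amotl1 and Axl lost their promoter site and 11 of 14 genes kept it (78.6%, against 79.8% of all genes), with 28 HE-only, 3 HP-only and 31 shared regions without interval overlap. Their one-list share in HE only was 90.3% (interval 75.1 to 96.7), which is also near that of all genes. HE-only regions numbered 5 at Tead1 and Tead4, 4 at Wwtr1 and Amotl1, 4 (3) at Amotl2, 3 (1) at Vgll4 and 3 at Lats2, while Vgll4 had 3 (1) HP-only regions and Yap1 2 (1).

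Blood transcription factor genes had regions of both kinds. Around these 28 genes were 63 HE-only, 22 HP-only and 47 shared regions without interval overlap, so that HP-only regions were 16.7% of the total against 7.34% around all genes. At least 2 HP-only regions lay near 8 genes (Runx1, Gata2, Meis1, Ikzf1, Zfpm1, Runx3, Cebpb and Zbtb16), against 2.64% of all genes. For Meis1 both, for Zfpm1 4 of 5, and for Gata2 and Cebpb 1 each came from HP intervals that overlap an HE interval. Promoter sites of Gfi1, Myb, Ikzf2, Fli1 and Mecom were in HE and not HP, and those of Ikzf1 and Runx3 in HP and not HE. Of the 23 genes with a promoter site in HE, 78.3% kept it, near the 79.8% of all genes. HE-only regions were most frequent at Meis1, with 11 (10), Fli1, with 7, and Etv6, with 6. Gfi1, Mecom and Irf8 had 5 each, Bcl11a 4 (3), Cebpb 3 (2), Lmo2 3 and Zfpm1 3 (0). Spi1, which encodes PU.1, had 4 regions and all were shared. No region was nearest to Gata1 within 100 kb.

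Runx1 had 14 regions, of which 2 were HE only, 6 HP only and 6 shared. Its total was no higher than that of Meis1, which also had 14 regions. With Cmip, Runx1 had the highest count of HP-only regions of any gene, and 5 of the 6 had no interval overlap. They lay in introns at chr16:92609110-92609609, chr16:92710210-92710709 and chr16:92818710-92819209, and upstream of the gene at chr16:92867310-92867809 and chr16:92904060-92904559. The MAC list also held 4 of the 6, MES held 1, and 2 were in no other list. RUNX letters were in 2 of the 6, both with GATA letters, while GATA letters were in 3 and ETS letters in 4. The region at chr16:92818710-92819209 is 7.11 kb downstream of the distal TSS, and a shared region at chr16:92822110-92822968 lies between them. Its stretch with most matches, chosen after its values were seen, is
Runx1, intron, HP only, chr16:92818732-92818881: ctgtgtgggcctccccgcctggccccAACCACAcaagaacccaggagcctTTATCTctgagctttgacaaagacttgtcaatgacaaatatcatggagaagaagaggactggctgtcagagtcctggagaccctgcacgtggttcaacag
with 1 RUNX match first and 1 GATA match second in capitals. Neither MES, HB nor MAC listed this region.

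Runx3, a second RUNX gene, had 3 HP-only regions, 2 of them at promoters, 1 HE-only and 2 shared. Ikzf1, which encodes Ikaros, had 2 HP-only regions, at its promoter (chr11:11684914-11685413) and 28.6 kb upstream, and neither region was in another list. The MAC list did hold a site within 1 kb of an Ikzf1 TSS. Zbtb16 had 2 HP-only and 2 shared regions.

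Progenitor surface and signaling genes had 41 HE-only, 8 HP-only and 32 shared regions without interval overlap. HE-only regions were 83.7% of the one-list regions (interval 71.0 to 91.5), near the 87.2% of all genes. Itga2b was the sorting gene with regions gained: of its 4 regions, 2 were HP only and 2 shared. The HP-only ones lay in an exon 9.12 kb downstream of the TSS and at -17.3 kb, and the latter was also in MES and HB. Plcg2, a phospholipase of immune and platelet receptors, had 3 HP-only and 2 HE-only regions, and Fyb, an adaptor of blood cells, had 2 HP-only and 1 shared. Vav1 had 2 HP-only regions, both under an HE interval. Cd34, Cxcr4, Ptpn6, Inpp5d, Plcg2 and Lcp2 had a promoter site in HE and not HP. The other 9 of 15 kept it, or 60% (interval 35.7 to 80.2), an interval that holds the 79.8% of all genes. HE-only regions numbered 5 at Cd34 and Cd44, 4 at Lyn and Lcp2, 3 at Cxcr4 and 3 (2) at Inpp5d.

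Megakaryocyte and platelet genes had 22 HE-only, 8 HP-only and 24 shared regions without interval overlap. HE-only regions were 73.3% of the one-list regions (interval 55.6 to 85.8), against 87.2% around all genes, and HP-only regions 14.8% of the total against 7.34%. That interval ignores that several of the regions lie at the same gene, and Vwf is also in the endothelial identity list. Tubb1, the tubulin of platelets, gained a promoter site (chr2:174450320-174450819, in no other list). Gp5, Gp9, Rab27b, F2rl2, Cd9, Mef2c and Vwf had one in HE and not HP, and 6 of 13 kept it (46.2%, interval 23.2 to 70.9, against 79.8% of all genes). At least 2 HP-only regions lay near Gp9, Itgb3, Rab27b and Vwf, 1 of those at Itgb3 under an HE interval. F2r had 5 HE-only regions, Mef2c 4, and Cd9 and F2rl2 3 each.

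Erythroid genes were the only list of the 12 with more HP-only than HE-only regions. Around these 24 genes were 11 HE-only, 12 HP-only and 24 shared regions, none with interval overlap in the one-list classes. HE-only regions were 47.8% of the one-list regions (interval 29.2 to 67.0), which lies below the 87.2% around all genes. Promoter sites of 0 genes were lost, 3 were gained (Hemgn, Ank1 and Hba-x) and 11 were shared, among them Klf1 and Epor, where 12.2%, 0.876% and 48.1% of all genes had these calls. The shared count, 45.8% of the list, is near that of all genes. Hemgn is a red cell nuclear protein, Ank1 the ankyrin of the red cell skeleton and Hba-x the embryonic alpha-like globin. The gained region at Hemgn (chr4:46403915-46404414) and that at Hba-x (chr11:32276314-32276813) were in no other list, and that at Ank1 was in MES and HB. Ank1 had 3 HE-only and 2 HP-only regions, Tspan33 2 HP-only, and Gypc 3 HE-only. Hbb-y, the embryonic beta-like globin, had 1 HP-only region at -12.8 kb and 1 shared at -7.95 kb.

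The alpha globin locus held the tightest of the 3 runs of 4 HP-only regions. In the list of all regions by position, 4 HP-only regions in a row lay at chr11:32245714-32265463, within 19.8 kb of each other, with no HE region between them. All 4 were in introns, between 2.49 and 19.5 kb from a TSS, 3 with Nprl3 and 1 with Mpg as the nearest. The introns of Nprl3 are known to hold the enhancers of the alpha globin genes. The HP sites were 1000, 700, 500 and 500 bp wide. MES, HB and MAC listed none of the 4, and none had interval overlap. All 4 had GATA letters and the first also the TAL1-GATA composite. The next region downstream was the shared promoter of Nprl3, followed by the HP-only promoter of Hba-x. The stretches around their GATA letters, chosen after values were seen, are named by their distance from the TSS of Mpg (the one at 19.5 kb) or Nprl3.
region at 19.5 kb, chr11:32245737-32245886: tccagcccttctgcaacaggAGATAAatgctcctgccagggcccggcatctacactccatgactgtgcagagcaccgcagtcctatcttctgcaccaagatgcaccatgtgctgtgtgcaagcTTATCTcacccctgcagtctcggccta
region at 16.7 kb, chr11:32251013-32251162: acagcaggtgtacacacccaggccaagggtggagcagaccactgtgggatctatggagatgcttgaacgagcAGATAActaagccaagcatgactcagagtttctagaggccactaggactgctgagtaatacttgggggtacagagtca
region at 11.5 kb, chr11:32256249-32256398: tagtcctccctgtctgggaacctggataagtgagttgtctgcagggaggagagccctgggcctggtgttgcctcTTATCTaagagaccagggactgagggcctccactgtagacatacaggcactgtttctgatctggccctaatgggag
region at 2.49 kb, chr11:32265244-32265393: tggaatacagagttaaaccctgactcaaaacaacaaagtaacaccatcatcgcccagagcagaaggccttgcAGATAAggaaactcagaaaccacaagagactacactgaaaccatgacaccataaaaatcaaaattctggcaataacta
Capitals mark the GATA matches. Of all regions beyond 2 kb, 31.9% held these letters.

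Myeloid genes had few regions, 12 HE-only, 2 HP-only and 7 shared without interval overlap, with 85.7% of the one-list regions in HE only (interval 60.1 to 96.0), near the 87.2% of all genes. Mpo, Tlr2 and Tlr4 had a promoter site in HE and not HP, and 14 of 20 genes (70%) had none in either list, against 38.8% of all genes. Of the 6 with one in HE, 50% kept it (interval 18.8 to 81.2, against 79.8% of all genes). Itgam, which encodes the macrophage marker CD11b, had no region. AP-1 factor genes had 19 HE-only, 5 HP-only and 16 shared regions without interval overlap, and the HE-only share was 79.2% (interval 59.5 to 90.8), again with that of all genes in its interval. Batf3 and Jdp2 lost their promoter site, and 11 of 13 kept it (84.6%, interval 57.8 to 95.7), near the 79.8% of all genes. HE-only regions numbered 4 at Jun and Jdp2, 3 (1) at Fos, 3 at Batf3 and 3 (2) at Bach1. HP-only regions numbered 4 (3) at Bach1, 3 (1) at Fos and 2 (0) at Fosb and Junb.

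**Figure D5:**
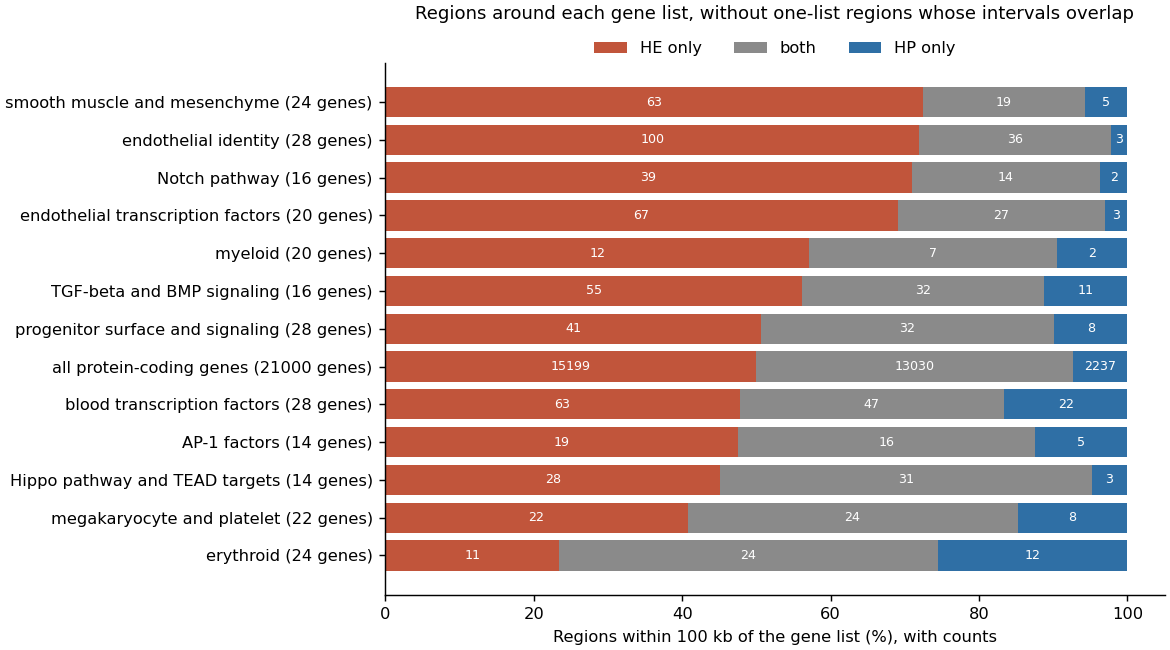
Regions within 100 kb (nearest TSS) of each gene list as a percent of the list's regions, split into HE only, shared and HP only, with counts in the bars; one-list regions whose interval overlaps the other list are left out. The endothelial identity list has 100 HE-only and 3 HP-only regions, the erythroid list 11 and 12, and all protein-coding genes 15199 and 2237.

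Over all genes, HE-only regions were most frequent at Smad7, with 17, followed by Dlc1, Ets1, Kdr, Palld, Rgs3 and Tmcc3 with 15 each, Zfp423 with 14, and Bcor and Frmd4a with 13 each. Without interval overlap Ets1 and Rgs3 had 14 and Bcor 12. Palld encodes an actin binding protein of the cytoskeleton. Of these 10 genes, 3 lost their promoter site (Rgs3, Zfp423 and Bcor). HP-only regions were most frequent at Cmip and Runx1, with 6 each, followed by Aff1, Ccnd3, Col4a2, Ier5, Rhou, Ripor1, Scarb1 and Smad1 with 5 each. Without interval overlap, Cmip and Runx1 had 5, Smad1 4, Aff1, Ccnd3, Ripor1 and Scarb1 3, and Col4a2, Ier5 and Rhou 2. Most of these genes had regions of both kinds: Cmip, Aff1, Col4a2, Ier5 and Rhou had at least 5 of each before that restriction.

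Runs of regions of one class were read last. With 52.5% of all regions in HE only and 10.8% in HP only, the class shares alone favor longer runs of HE-only regions. The longest HE-only runs held 18 regions in a row. One lay at chr6:52221459-52578608 (357 kb), over the Hoxa genes from Hoxa7 to Hoxa13 and Evx1, which pattern the body axis. The others were longer in span, on chromosome 17 (1002 kb, with Ptprm), 13 (3670 kb, with Prl and Sox4) and 5 (5170 kb, with Cacna2d1 and Hgf). Of the 18 at the Hoxa genes, 6 were promoters, 10 were CpG-rich, 7 were in MES or HB and 2 in MAC. Another run of 17 regions covered 284 kb at B3gnt2 and Tmem17. HP-only runs were short. Besides that at Nprl3, 4 regions in a row lay at Smox, a polyamine oxidase gene that gained a promoter site, and another 4 at Fam210b and Mc3r, of which 1 had interval overlap. The runs were read after values were seen.

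The widest HE-only sites beyond 2 kb were at Kdm6b (3400 bp), Dpysl2 (3100 bp), Olfr1368 and 1700001O22Rik (3000 bp each) and Lrrc30 (2800 bp), and only the last had no HP interval over it. The widest HP-only sites were at Aurkb and Nsd2 (1700 bp each), Wdr81 and Tspoap1 (1600 bp each) and Celf5 (1500 bp), and only that at Tspoap1 had no HE interval over it.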

How the data were processed

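DNaseI-seq was measured in 5 sorted populations, 1 list each, and HE and HP were compared. Per the labels and the study's methods, the authors aligned unique reads to mm10 with Bowtie, removed duplicates, used DFilter for site calling (bin size 100 bp) and HOMER in later steps. The deposited files hold 3 columns (chromosome, start, end) with no score, count or depth, so widths and positions were the only measurements, and reads per site are unknown. All interval widths were multiples of 100 bp. The 4 HP sites on chromosome M were left out. Regions, classes, nearest TSS (26032 TSS of 21000 protein-coding genes, curated RefSeq transcripts, GRCm38.p6) and motif matches were computed with Python 3.11.15, numpy 2.4.6 and pandas 2.3.3, and the code was tested on simulated sites and sequences. Shares have 95% Wilson intervals and differences Newcombe intervals. The reference genome is of another strain than the cells. A gene belongs to a promoter class by any of its curated TSS.

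Members and gene lists (12 lists, 249 genes) were chosen with earlier results of these data known. Named from the lists were genes with at least 3 HE-only or 2 HP-only regions, genes whose promoter call differs and sorting markers. Named from all genes were the 10 with most HE-only and most HP-only regions, the 5 with most of both, and the 5 widest sites of each class beyond 2 kb. Alternatives are listed in the closing section.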

Additional observations from a re-analysis of the deposited data

Results flagged for a closer look

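The HP list held 4 sites on chromosome M, the mitochondrial genome, and the MES, HB, HE and MAC lists held 0. These sites lie outside every comparison of the report, and their number is just above the 3 counts that a count of 0 allows.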

How the results depend on the processing

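HE-only regions outnumbered HP-only regions (19599 and 4024) in every setting tried but 1. The HE list is the longer one, with 33305 sites against 17730, and this order follows from list length. With sites at or above each list's median width there were 10262 HE-only, 1372 HP-only and 7725 shared regions. With the HE list cut to its widest sites, as many as HP has, both one-list classes held 6758. Lists of equal length make these counts, and the shares also in the other list, equal by construction. With deposited intervals in place of windows, and without regions of interval overlap (added after seeing the data), HP-only regions numbered 2483. The share of HE regions also in HP and of HP regions also in HE was 43.2% and 81.1% with an overlap of 1 bp, 36.7% and 68.9% with 250 bp, 45.5% and 85.9% with deposited intervals, 43.0% and 84.7% without interval overlap, 42.9% and 84.9% at the median width and 61.9% in both directions with the widest HE sites. Promoter shares of HE-only, HP-only and shared regions were 19.2%, 30.4% and 60.9% (1 bp), 25.1%, 48.4% and 58.2% (250 bp), 16.8%, 15.5% and 61.6% (deposited intervals), 38.8%, 64.7% and 81.6% (median width), 37.5%, 30.9% and 70.1% (widest HE sites), 18.2%, 33.8% and 58.7% (promoter within 1 kb) and 29.3%, 46.3% and 66.5% (TSS of all transcripts). Without interval overlap they were 16.8% and 15.5% for the one-list classes. The share listed in MES, HB or MAC, 39.8% for HE-only and 61.4% for HP-only regions, was 58.0% and 84.7% at the median width, 47.4% and 66.9% with the widest HE sites, 39.1% and 45.6% without interval overlap, and 45.1% and 63.9% by any overlap with an interval. Promoter genes of HE only (2559) fell to 1456 and those of HP only (184) rose to 796 with the widest HE sites, and HP-only ones to 336 within 100 bp of a TSS. Motifs higher in HP-only regions numbered 3 at 40 to 50% GC (added after seeing the data), and those higher in HE-only regions 3 at the median width. With the widest HE sites the GATA difference turned to -0.17, the TEAD difference to 0.26 and the AP-1 difference, -1.24 points before, to 4.40. Beside these, 12 values of single motifs whose difference had left out 0 included it under an alternative, and 1 did the reverse (AP-1 at 40 to 50% GC, -2.76). The cause was not tested. No paired analysis was possible because each stage has 1 list, and no replicate could be left out for the same reason. Depth limits what a list can hold and is unknown from the files.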

Other observations

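The one-list regions were not spread alike over the chromosomes. Without interval overlap, chromosome 8 held 280 HP-only regions, 11.3% of that class, against 6.69% of the HE-only regions, with 8.03% of all HP sites and 7.05% of all HE sites. Chromosome X held 13 HP-only regions, 0.524% of the class, against 2.05% of the HE-only regions. These shares were read after the values were seen, with 1 list per stage, and their cause was not tested.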
